A study of Mus musculus and Rattus norvegicus with 28 samples.

Results

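The genes described here were those with a transient peak of transcript level at postnatal day 1 (P1) in mouse cardiomyocytes. A gene was taken when its mean P1 level was at least 5 FPKM and its lower P1 library stood at least 1.8 times above the higher library of embryonic day 18.5 (E18.5) and of postnatal day 7 (P7). Ankrd1 and Trim72 were left out by the same rule. This left 36 of 55450 genes, all of them among the 13979 genes with at least 1 FPKM in 2 or more mouse libraries that entered the tests. FPKM is the number of sequenced fragments scaled to transcript length and library size, summed here over the transcripts of a gene.

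The study profiled cardiomyocytes isolated from the left ventricles of wild-type C57BL/6 mice of both sexes, without any drug, at E18.5, P1, P3 and P7. There were 2 RNA-seq and 2 ATAC-seq libraries at each time point. Ventricular cardiomyocytes from Sprague Dawley rats at P1 were cultured and given DMSO as the control or 100 nM TSA, a histone deacetylase inhibitor, with 3 RNA-seq libraries each. Reads assigned to genes were estimated from coverage at 25800000 to 33000000 per mouse library and 27200000 to 37200000 per rat library.

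Birth exposes the heart muscle to a higher workload, to oxygen and to milk fat, and the cardiomyocyte changes its ion channels, its energy supply and its responses to the autonomic nerves in the days that follow. Acetylcholine from the vagus and adenosine act on the receptors Chrm2 and Adora1, which couple to inhibitory G proteins and slow the heart.

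The isolated cells were not equally rich in cardiomyocyte transcripts. The summed level of 16 cardiomyocyte markers was 30600 and 39700 FPKM at E18.5, 14900 and 23500 FPKM at P1, 9800 and 7930 FPKM at P3, and 2630 and 1240 FPKM at P7. The P7 mean was 5.49% of the E18.5 mean. The sum of 12 fibroblast markers lay at 591 to 600 FPKM at E18.5, 1240 to 1470 FPKM at P1, 1640 to 1660 FPKM at P3 and 3060 to 3800 FPKM at P7, and that of 8 erythroid markers at 29000 to 35400 FPKM at E18.5 against 5.07 to 41.8 FPKM in the 6 later libraries. The paper reported high purity of the isolated cells at P7 by staining for cardiac troponin T. In these bulk samples, fewer cells of a type and less RNA per cell cannot be told apart. The part of these marker lists in the levels below was not tested, beyond the values relative to the cardiomyocyte markers given further on. None of the 36 genes belonged to the 10 marker lists or the 14 pathway lists, which held 465 genes in all.

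Before the levels, the promoters of 4 of the genes are shown, because they span what the chromatin data found at these genes. A promoter here is a window of 300 bases, most of them before and the last 50 after a RefSeq start (build GRCm38.p6, the assembly of mm10), written 5′ to 3′ on the strand of the gene. Sphkap and Fuca2 gained an ATAC-seq region at P1. The Peg3 window lay partly under a region (chr7:6730178-6730599) that was called in P1 replicate 1, both P3 libraries and P7 replicate 1 and in no E18.5 library. Thbs4 had no region. Capitals mark the cyclic AMP response element TGACGTCA, the only element of those searched that fell in the 4 windows.
Sphkap, chr1:83408151-83408450, minus strand: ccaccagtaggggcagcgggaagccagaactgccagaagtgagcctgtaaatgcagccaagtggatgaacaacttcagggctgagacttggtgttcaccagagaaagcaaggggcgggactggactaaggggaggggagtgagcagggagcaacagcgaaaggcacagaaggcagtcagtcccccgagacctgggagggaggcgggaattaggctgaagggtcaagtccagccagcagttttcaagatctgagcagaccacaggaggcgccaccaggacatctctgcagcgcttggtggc
Fuca2, chr10:13500778-13501077, plus strand: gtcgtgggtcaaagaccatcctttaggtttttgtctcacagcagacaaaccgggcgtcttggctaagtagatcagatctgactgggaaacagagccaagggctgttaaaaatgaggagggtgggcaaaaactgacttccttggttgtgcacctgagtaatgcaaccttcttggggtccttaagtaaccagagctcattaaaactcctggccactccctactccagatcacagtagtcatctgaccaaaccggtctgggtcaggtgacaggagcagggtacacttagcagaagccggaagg
Peg3, chr7:6730370-6730669, minus strand: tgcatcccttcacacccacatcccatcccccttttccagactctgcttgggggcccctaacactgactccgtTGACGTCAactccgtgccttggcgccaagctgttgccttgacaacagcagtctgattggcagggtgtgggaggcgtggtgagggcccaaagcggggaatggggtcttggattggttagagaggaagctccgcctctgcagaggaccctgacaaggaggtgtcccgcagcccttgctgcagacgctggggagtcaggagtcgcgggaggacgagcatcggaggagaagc
Thbs4, chr13:92794769-92795068, minus strand: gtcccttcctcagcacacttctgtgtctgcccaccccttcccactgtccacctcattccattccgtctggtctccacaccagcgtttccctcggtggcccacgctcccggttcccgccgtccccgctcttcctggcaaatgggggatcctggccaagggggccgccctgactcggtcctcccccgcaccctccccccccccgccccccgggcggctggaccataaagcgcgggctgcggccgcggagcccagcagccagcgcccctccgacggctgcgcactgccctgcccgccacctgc
The gained region covered 297 of the 300 bases of the Sphkap window and 219 of those of the Fuca2 window. The GC content of the window was 59.0% for Sphkap and 50.3% for Fuca2, against 72.0% for Thbs4.

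The genes were chosen by their P1, E18.5 and P7 levels, so those levels are a description and carry no test. The mean P1 level ran from 5.06 FPKM for Fv1 to 140 FPKM for Tsc22d4, with a median of 15.2 FPKM. In 24 of the 36 genes every one of the 8 libraries reached 1 FPKM. The smaller of the ratios to E18.5 and to P7 was the one to E18.5 in 20 genes and the one to P7 in 16 genes. Just inside the E18.5 limit lay Fuca2 with a ratio of 1.81, and just outside lay Cd59a with 1.77. Just inside the P7 limit lay Ap1s2 with a ratio of 1.84, and just outside lay Znrd1as with 1.79. The number of genes past the limits was 143 without P1 replicate 1, 61 without P1 replicate 2 and 75 without P7 replicate 1. Leaving out a library loosens the ratio limits, so a rise was set by the rule. Of the 36 genes, 35, 32 and 36 still passed, in the same order. The number was 77 on TPM, which is scaled to a fixed total per library, and 23 after scaling by median-of-ratios size factors.

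Among the channels and transporters, Kcnab1, a beta subunit of Shaker-type potassium channels, read 0.263 and 0.0863 FPKM at E18.5, 11.8 and 12 FPKM at P1, 8.63 and 5.68 FPKM at P3, and 6.2 and 4.73 FPKM at P7. Slc6a6, which carries taurine into cells, read 48.9 and 23.1 FPKM at E18.5, 101 and 103 FPKM at P1, 81.7 and 84.0 FPKM at P3, and 53.0 and 37.8 FPKM at P7. The P7 libraries of Slc6a6 overlapped its fetal libraries, whereas Kcnab1 was near silent in both fetal libraries and stayed on at P7.
The water channel Aqp4 read 3.37 and 3.58 FPKM at E18.5, 8.66 and 22.1 FPKM at P1, 5.57 and 3.2 FPKM at P3, and 0.648 and 0.254 FPKM at P7. The water channel Aqp5 read 0.038 and 0.229 FPKM at E18.5, 11 and 6.95 FPKM at P1, 4.5 and 3.84 FPKM at P3, and 2.1 and 2.45 FPKM at P7. Both peaked at P1, but the P3 libraries of Aqp4 already lay on either side of its fetal level, whereas both of Aqp5 lay far above theirs.

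Among the receptors, Chrm2, the muscarinic receptor of heart muscle, read 5.26 and 3.91 FPKM at E18.5, 10.2 and 21.0 FPKM at P1, 8.73 and 7.9 FPKM at P3, and 1.78 and 0.716 FPKM at P7. The adenosine receptor Adora1 read 3.02 and 3.76 FPKM at E18.5, 7.28 and 7.07 FPKM at P1, 4.65 and 6.78 FPKM at P3, and 1.34 and 0.851 FPKM at P7. Paqr7, a membrane progestin receptor, read 1.13 and 1.47 FPKM at E18.5, 11.6 and 13.9 FPKM at P1, 10.4 and 5.41 FPKM at P3, and 2.03 and 3.46 FPKM at P7. The receptors for acetylcholine and adenosine were lowest at P7, and Paqr7 was lowest at E18.5.
Sphkap, an anchor for protein kinase A, read 0.853 and 0.748 FPKM at E18.5, 5.63 and 9.53 FPKM at P1, 1.23 and 0.898 FPKM at P3, and 0.166 and 0.0751 FPKM at P7. Lnx1, a ubiquitin ligase that acts on Numb, read 0.608 and 0.401 FPKM at E18.5, 4.14 and 7.22 FPKM at P1, 2.75 and 3.49 FPKM at P3, and 0.883 and 0.43 FPKM at P7. Plekha6, a protein with a pleckstrin homology domain, read 5.35 and 4.6 FPKM at E18.5, 11.5 and 29.5 FPKM at P1, 10.7 and 10.2 FPKM at P3, and 1.99 and 1.43 FPKM at P7. Sphkap had the sharpest peak by the rule, its lower P1 library standing 6.6 times above the higher E18.5 library and 34.0 times above the higher P7 library. Bcr, which regulates small GTPases, read 15.6 and 5.86 FPKM at E18.5, 30.0 and 44.2 FPKM at P1, 36.5 and 27.2 FPKM at P3, and 14.0 and 9.66 FPKM at P7. A transcript with a retained intron held 53.7% of its P1 level, the only gene of the 36 whose leading P1 transcript was not annotated as protein coding.

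Among the secreted and surface signals, Nrtn, the neurturin ligand that sustains parasympathetic neurons, read 7.65 and 11.8 FPKM at E18.5, 37.6 and 57.7 FPKM at P1, 31.3 and 18.2 FPKM at P3, and 8.71 and 2.04 FPKM at P7. The matrix glycoprotein Thbs4 read 7.64 and 11.5 FPKM at E18.5, 34.6 and 81.9 FPKM at P1, 23.8 and 19.3 FPKM at P3, and 5.28 and 1.43 FPKM at P7. Sema3e, a guidance ligand of plexin D1, read 0.826 and 0.179 FPKM at E18.5, 6.34 and 6.15 FPKM at P1, 4.1 and 3.9 FPKM at P3, and 2.8 and 2.01 FPKM at P7. The P1 libraries of Thbs4 were far apart, while those of Sema3e nearly coincided.
The ligand Wnt5b read 1.12 and 1.29 FPKM at E18.5, 4.6 and 6.79 FPKM at P1, 2.83 and 2.92 FPKM at P3, and 1.81 and 2.04 FPKM at P7. Sost, the WNT antagonist sclerostin, read 0.894 and 1.61 FPKM at E18.5, 6.84 and 4.59 FPKM at P1, 6.7 and 2.36 FPKM at P3, and 2.1 and 0.795 FPKM at P7. A WNT ligand and a WNT antagonist were thus both highest at P1, with the P3 libraries of Sost lying on either side of its lower P1 library. Oit3, which carries a zona pellucida domain, read 3.19 and 2.86 FPKM at E18.5, 12.1 and 17.7 FPKM at P1, 12.9 and 10.1 FPKM at P3, and 4.86 and 2.26 FPKM at P7. Nrn1, the surface-anchored neuritin, read 2.47 and 2.08 FPKM at E18.5, 16.2 and 8.57 FPKM at P1, 8.25 and 5.43 FPKM at P3, and 3.83 and 2.86 FPKM at P7. Podn, a small leucine-rich matrix proteoglycan, completed the group with a mean of 5.09 FPKM at P1.

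Among the enzymes, Gpd1, which makes glycerol 3-phosphate in the cytosol, read 3.46 and 3.72 FPKM at E18.5, 11.2 and 14.8 FPKM at P1, 15.6 and 13.1 FPKM at P3, and 4.37 and 1.59 FPKM at P7. Gatm, which catalyses the first step of creatine synthesis, read 0.652 and 1.21 FPKM at E18.5, 5.15 and 8.22 FPKM at P1, 5.69 and 3.4 FPKM at P3, and 2.81 and 1.83 FPKM at P7. Coq8a, needed for coenzyme Q synthesis in mitochondria, read 13.8 and 21.0 FPKM at E18.5, 40.6 and 74.1 FPKM at P1, 40.0 and 37.1 FPKM at P3, and 10.1 and 5.05 FPKM at P7. Gpd1 was the only gene of the 36 with a higher mean at P3 than at P1, and its P1 and P3 libraries overlapped.
Art3, of the ADP-ribosyltransferase family, read 26.8 and 26.0 FPKM at E18.5, 51.8 and 80.0 FPKM at P1, 34.8 and 26.9 FPKM at P3, and 11.3 and 8.22 FPKM at P7. The fucosidase gene Fuca2 read 11.5 and 17.7 FPKM at E18.5, 32.1 and 38.6 FPKM at P1, 27.4 and 23.3 FPKM at P3, and 13.7 and 7.9 FPKM at P7. At P3, Art3 had come close to its fetal level and Fuca2 had not.

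Among the transcription regulators, Irx3, an Iroquois homeobox factor known for its part in the ventricular conduction system, read 13.8 and 12.4 FPKM at E18.5, 32.5 and 53.1 FPKM at P1, 23.1 and 21.6 FPKM at P3, and 5.97 and 1.6 FPKM at P7. Tsc22d4, of the TSC22 domain family, read 42.1 and 42.4 FPKM at E18.5, 96.8 and 184 FPKM at P1, 94.7 and 89.4 FPKM at P3, and 44.0 and 32.9 FPKM at P7. The imprinted zinc finger gene Peg3 read 12.5 and 10.5 FPKM at E18.5, 24.7 and 28.5 FPKM at P1, 17.6 and 14.9 FPKM at P3, and 12 and 9.39 FPKM at P7. Irx3 fell well under its fetal level by P7, whereas Tsc22d4 and Peg3 came back to about where they had been. Mybphl, a myosin binding protein of the atria and conduction system, read 8.89 and 8.93 FPKM at E18.5, 16.3 and 19.9 FPKM at P1, 8.84 and 4.03 FPKM at P3, and 6.33 and 4.96 FPKM at P7. It was the only gene of the 36 whose P3 mean lay below its E18.5 mean. The other sarcomere, cytoskeleton and trafficking genes were the actin-associated Pdlim4 and the clathrin adaptor subunit Ap1s2, with P1 means of 13.7 and 20.3 FPKM.

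Of the remaining genes, Parm1 read 15.1 and 11.8 FPKM at E18.5, 33.5 and 48.5 FPKM at P1, 26.0 and 30.2 FPKM at P3, and 10.7 and 7.79 FPKM at P7. Fam78a read 4.29 and 7.67 FPKM at E18.5, 25.8 and 36.4 FPKM at P1, 16.9 and 15.2 FPKM at P3, and 3.63 and 1.59 FPKM at P7. Lrrc3b read 1.13 and 1.68 FPKM at E18.5, 6.31 and 6.99 FPKM at P1, 3.83 and 3.18 FPKM at P3, and 1.57 and 0.884 FPKM at P7. In each of these the P3 libraries lay between those of P1 and those of E18.5 and P7. The retrovirus-derived gene Fv1 and D430042O09Rik were the others, and the reads of Fv1 may be shared with related endogenous copies.

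**Figure D1:**
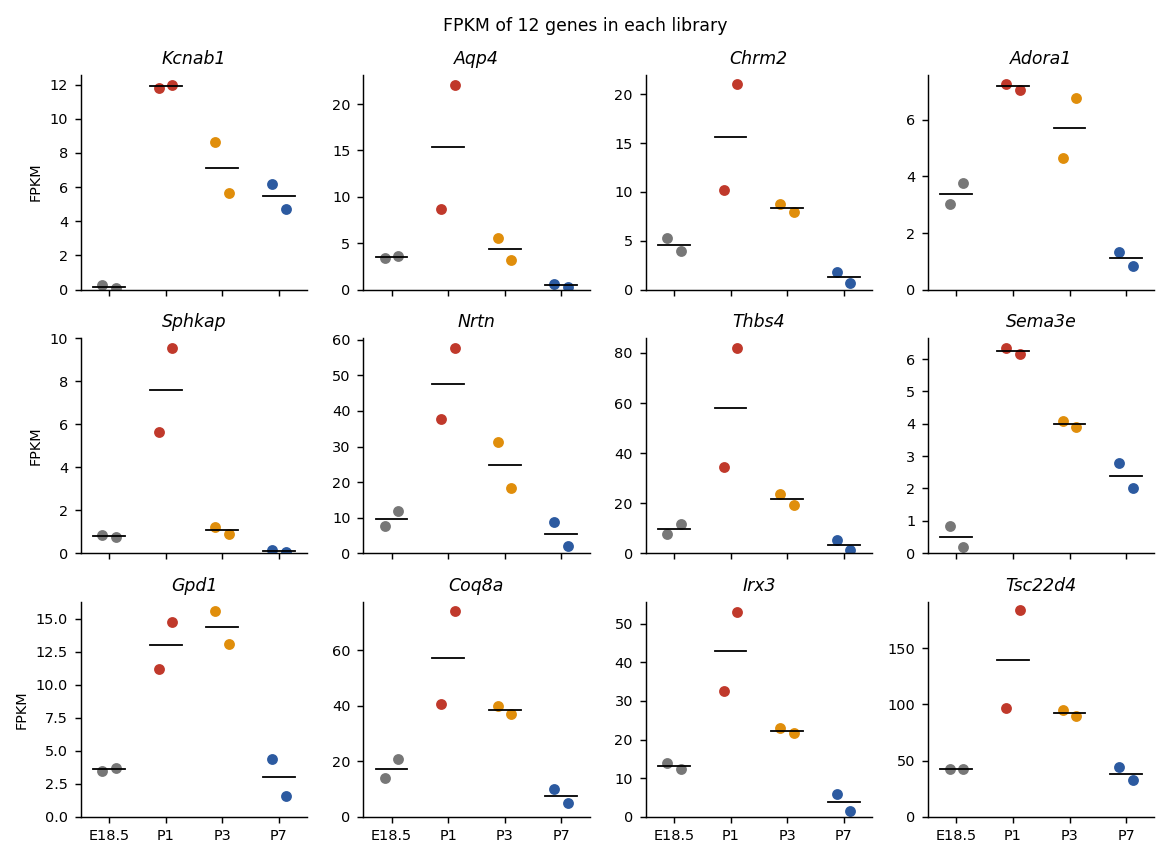
FPKM (vertical axis, from 0) of 12 of the genes in each of the 8 mouse RNA-seq libraries (points, 2 per time point) with the mean of each time point as a horizontal line. In all 12 genes both P1 points lie above the E18.5 and P7 points, and Gpd1 has P3 points of 15.6 and 13.1 FPKM that overlap its P1 points.

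The P3 libraries were not used to choose the genes, so they show how far the peak persisted. The mean P3 level was 60.5% of the mean P1 level at the median gene and ran from 14.0% for Sphkap to 110% for Gpd1. It was under 50% in 6 genes, which were Sphkap, Aqp4, Mybphl, Thbs4, Aqp5 and Art3, between 50% and 75% in 23 genes and at least 75% in 7 genes. Both P3 libraries lay above both E18.5 libraries in 34 of the 36 genes, against 46.3% of all tested genes, and above both P7 libraries in 34, against 31.7%. They lay above all E18.5 and P7 libraries in 33 of the 36 genes, against 11.8% of all tested genes. In 27 genes the P3 libraries lay wholly between the P1 libraries and those of E18.5 and P7, against 1.84% of all tested genes. Because P1 was chosen to be high and E18.5 and P7 to be low, this place in between follows in part from the choice. The rule put P1 above E18.5 and P7 in all 36 genes, which the count of 27 needs and other tested genes need not meet. The shares of all tested genes are therefore no like base for these counts, and nothing is read from the contrast.

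**Figure D2:**
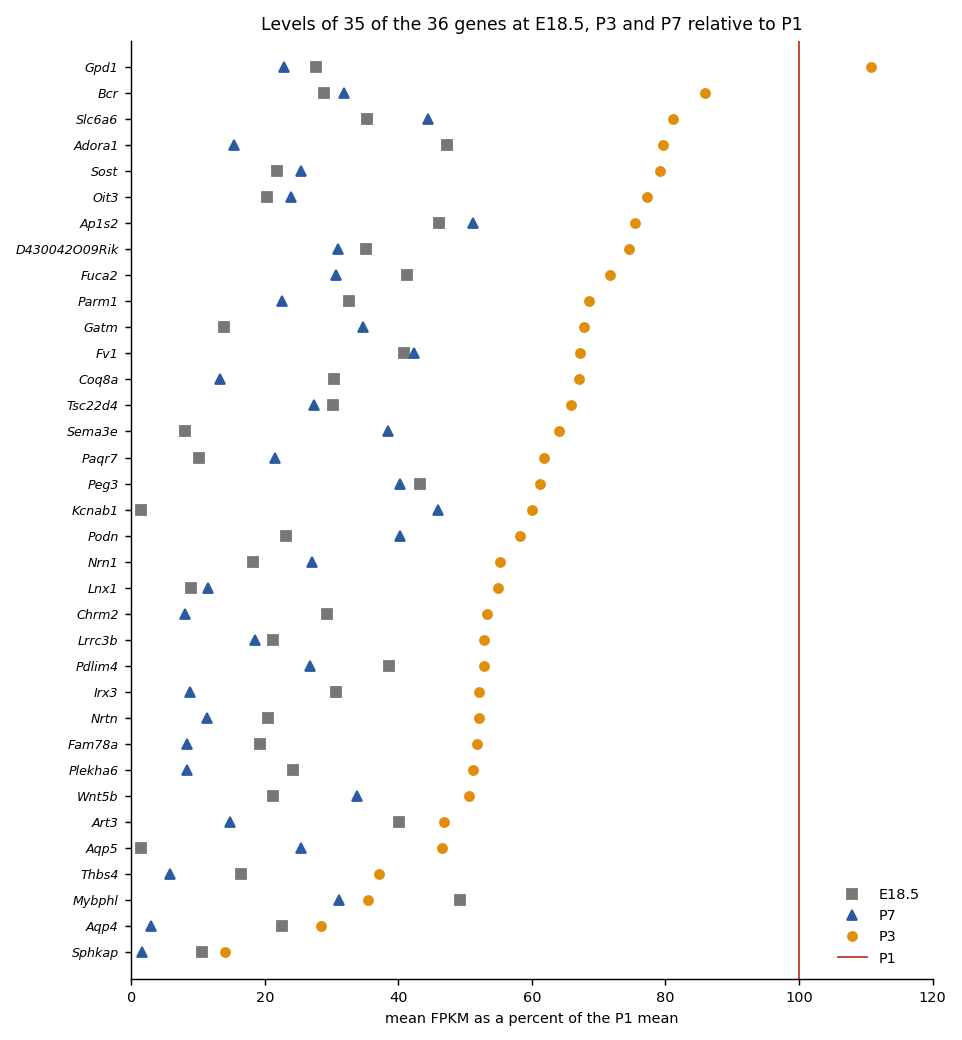
Mean FPKM of 35 of the 36 genes at E18.5 (squares), P3 (circles) and P7 (triangles) as a percent of the P1 mean (vertical line), 1 gene per row in the order of the P3 value. The P3 circles run from 14.0% for Sphkap to 110% for Gpd1, and most lie to the right of the squares and triangles.

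At P3 compared with E18.5, 17 of the 36 genes were higher and none was lower, by limma on log2(FPKM + 1), where a call needed a log2 difference over 1 and an adjusted p under 0.05. Over all tested genes 13.0% were called higher and 8.88% lower in that comparison. The E18.5 libraries were chosen to be low, which favours a higher P3 level, and the P3 libraries played no part in the choice. All tested genes were not chosen in this way, so their shares are no like base. The spread was estimated from all the mouse libraries, among them those that chose the genes. The p-values below are thus a description of chosen genes. The difference was largest for Kcnab1, at 2.78 ± 0.22 (log2, SE, adjusted p = 6.7e-05), followed by Aqp5 at 2.19 ± 0.22 (adjusted p = 0.000197) and Paqr7 at 1.90 ± 0.30 (adjusted p = 0.00135). Sema3e was higher by 1.77 ± 0.23 on the log2 scale (adjusted p = 0.000573) and Gpd1 by 1.74 ± 0.31 (adjusted p = 0.00268). By role, 4 of the 5 channels and transporters passed, as did 4 of the 8 secreted and surface signals, 3 of the 7 receptor and signalling genes and 3 of the 5 enzymes. None of the 3 sarcomere, cytoskeleton and trafficking genes did. The genes whose P3 level was not separated from E18.5 included Sphkap at 0.19 ± 0.23 (adjusted p = 0.52), Art3 at 0.21 ± 0.23 (adjusted p = 0.489) and Aqp4 at 0.23 ± 0.39 (adjusted p = 0.652). The median log2 difference was 1.06 in the 36 genes and 0.16 in all tested genes. Scaling by size factors moved these to 0.85 and -0.02, with no gene of the 36 called lower on either scale. The count of 17 became 12 with size factors, 13 without an expression filter and 24 on TPM. Calls were also lost without E18.5 replicate 1 and without E18.5 replicate 2. Some calls were lost when P3 replicate 1 was left out, and 8 genes kept their call under every alternative that tested them. These were Oit3, Gpd1, Kcnab1 and Paqr7 under 16 alternatives, and Gatm, Lnx1, Aqp5 and Sema3e under 15. The latter genes were not in the fit limited to a mean of at least 5 FPKM.

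From P3 to P7, 17 of the 36 genes fell and none rose, against 2.2% of all tested genes called lower and 1.35% called higher. Here the P7 libraries were chosen to be low, so a fall was favoured by the choice. All tested genes were not chosen in this way, and the values below are a description. Steep falls on the log2 scale included those of Thbs4 at -2.52 ± 0.50 (adjusted p = 0.0284), Irx3 at -2.45 ± 0.41 (adjusted p = 0.0172) and Fam78a at -2.30 ± 0.33 (adjusted p = 0.0115). Coq8a changed by -2.27 ± 0.36 (adjusted p = 0.0136), Chrm2 by -2.09 ± 0.34 (adjusted p = 0.0154) and Adora1 by -1.67 ± 0.21 (adjusted p = 0.0105). Kcnab1 at -0.32 ± 0.22 (adjusted p = 0.518), Wnt5b at -0.41 ± 0.19 (adjusted p = 0.314) and Mybphl at -0.09 ± 0.29 (adjusted p = 0.921) did not pass. Over the same days 13 of the 16 cardiomyocyte markers also fell, with a median log2 difference of -2.32 against -1.21 in the 36 genes. The count of 17 rested on single libraries, since it was 1 without P3 replicate 1, 0 without P3 replicate 2 and 2 without P7 replicate 2, and it was 0 when genes of every level were tested.

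Between P7 and E18.5 both sides were among the values that chose the genes, which bounded each from above but not against the other, so this contrast is a description. By the call rule, 3 genes were higher at P7 and 9 lower, where 15.4% and 12.3% of all tested genes were called. The log2 difference was 2.45 for Kcnab1, 1.53 for Aqp5 and 1.20 for Sema3e, the 3 higher genes. Among the 9 lower genes it was -1.72 for Irx3, -1.64 for Aqp4, -1.34 for Chrm2 and -1.07 for Adora1. In the same contrast all 16 cardiomyocyte markers were called lower, with a median log2 difference of -4.01. The P7 mean of the summed markers was 5.49% of the E18.5 mean, so dividing by them raises P7 against E18.5 in every gene. The direction of Chrm2 and Adora1 turned with this division, as it would for any gene that fell by less than the summed markers. On that scale the mean was higher at P7, going from 2.2 at E18.5 to 10.2 at P7 for Chrm2 and from 1.57 to 9.77 for Adora1. The call of Chrm2 was also lost without E18.5 replicate 1 or P7 replicate 2, and that of Adora1 without E18.5 replicate 2 or P7 replicate 2. Without a limit on size, both P7 libraries lay above both E18.5 libraries in 8 genes, where 45.6% of all tested genes did, and below them in 15 genes, where 32.7% did. On TPM, 5 genes were higher and 7 lower. The count of calls fell to 6 without E18.5 replicate 2 and to 6 without P7 replicate 2.

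Between P1 and P3 neither limma nor the voom fit on estimated reads called any of the 36 genes, and 18 had an unadjusted p under 0.05, against 11.3% of all tested genes. Over all tested genes 0.0143% were called higher at P3 and none lower. Both P1 libraries lay above both P3 libraries in 30 of the 36 genes, against 20.1% of all tested genes. The P1 side of this contrast chose the genes.

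The libraries of a time point also differed, and the 36 genes differed between them largely in 1 direction. P1 replicate 2 was above P1 replicate 1 in 31 of the 36 genes and in 53.8% of all tested genes. P7 replicate 1 was above P7 replicate 2 in 29 of the 36 genes, again with 53.8% of all tested genes, and P3 replicate 1 above P3 replicate 2 in 28, with 45.2% of all tested genes. At E18.5 replicate 2 was the higher in 20 genes and in 45.5% of all tested genes. In each of these pairs the library with more of the 36 genes on its side also had the larger cardiomyocyte marker sum.

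Each level was also divided by the cardiomyocyte marker sum of its library. Both P1 sums lay below both E18.5 sums, so the division could only enlarge the difference between P1 and E18.5 that chose the genes, and nothing is read from it. The P7 sums lay below the P1 sums, with means of 1930 and 19200 FPKM, so the division raised P7 against P1 in every gene. The order of P1 and P7 then depended on whether a gene fell by less than the markers did. It is given as a description. The highest of the 4 means was then at P1 in 3 genes (Sphkap, Thbs4 and Aqp4), at P3 in 10 genes (Lnx1, Fam78a, Nrtn, Gpd1, Irx3, Plekha6, Chrm2, Coq8a and Adora1 among them) and at P7 in 23 genes. Both P7 libraries lay above both P1 libraries in 26 genes and below them in 5, which were Sphkap, Fam78a, Thbs4, Aqp4 and Chrm2. The shares of all tested genes on this scale are not given here, so nothing particular to the 36 genes is read from these counts. The limits that defined the peak were met on this scale by 2 of the 36 genes, Sphkap and Aqp4. In FPKM rescaled to a common marker sum, the libraries of Sphkap then read 0.453 and 0.307 (E18.5), 6.16 and 6.6 (P1), 2.04 and 1.84 (P3), and 1.03 and 0.991 (P7). This division was chosen after the data were seen and takes the markers as fixed per cardiomyocyte, which was not tested.

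**Figure D3:**
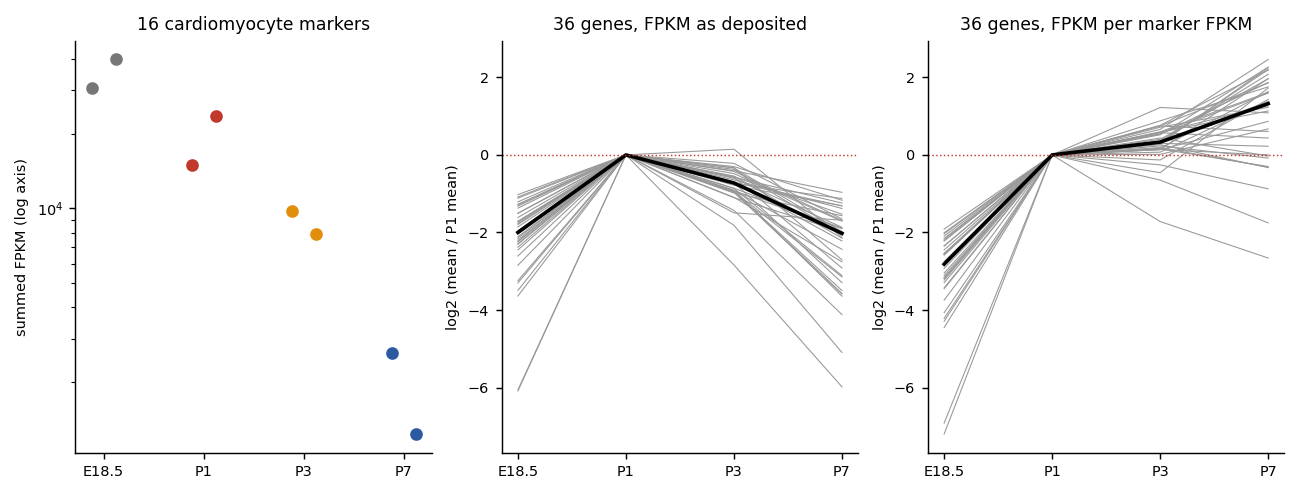
Left, summed FPKM of 16 cardiomyocyte markers in each mouse library on a log axis. Middle and right, mean level of each of the 36 genes (grey lines) and their median (black line) at each time point as a log2 ratio to P1, from FPKM as deposited and from FPKM divided by the marker sum. The marker sum falls from 30600 and 39700 FPKM at E18.5 to 2630 and 1240 FPKM at P7. In the right panel 23 genes have their highest mean at P7. The division raises P7 against P1 in every gene, and the share of all tested genes is not given.

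The genes were also read beside their nearest relatives, by families listed after the 36 genes were known and given as levels only. Irx5, the Iroquois gene that lies beside Irx3, read 5.19 and 7.07 FPKM at E18.5, 10.5 and 15 FPKM at P1, 8.04 and 8.89 FPKM at P3, and 2.62 and 1.31 FPKM at P7. Irx4, which marks ventricular muscle, read 20.9 and 26.0 FPKM at E18.5, 8.85 and 16.1 FPKM at P1, 6.66 and 5.04 FPKM at P3, and 1.34 and 0.56 FPKM at P7. Irx1 and Irx2 were likewise highest in the E18.5 libraries, so only Irx3 and Irx5 of the 5 tested Iroquois genes were highest at P1.
The adenosine receptor Adora2b ran the other way to Adora1, with 0.61 and 0.19 FPKM at E18.5, 2.28 and 2.38 FPKM at P1, 5.37 and 6.67 FPKM at P3, and 13.3 and 13.9 FPKM at P7. Thbs2, another thrombospondin, read 6.51 and 5.13 FPKM at E18.5, 8.69 and 6.44 FPKM at P1, 14.9 and 13.5 FPKM at P3, and 20.8 and 25.0 FPKM at P7. Neither had a P1 peak. Wnt5a, the close relative of Wnt5b, read 1.89 and 1.33 FPKM at E18.5, 11.6 and 14.9 FPKM at P1, 11.3 and 9.7 FPKM at P3, and 11.1 and 6.32 FPKM at P7, and so rose with Wnt5b but stayed higher. Of the GDNF family ligands and receptors, Nrtn was the only gene above 3 FPKM in any library.

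Some of the genes lay near each other. Aqp5 (chr15:99590782-99594829, mm10) and Gpd1 (chr15:99717515-99725005) were 122.7 kb apart, with 3 tested genes between them. Parm1 and Art3 on chromosome 5 were 704.9 kb apart and Plekha6 and Adora1 on chromosome 1 were 895.8 kb apart. The library kit did not mark strand, so reads where exons of opposite strands overlap cannot be told apart. Such overlaps covered 22.3% of the exon bases of Nrn1, with Fars2, and 12.2% of those of Lnx1, with Fip1l1. The same leading transcript was the most abundant at all 4 time points in 26 of the 36 genes. Sphkap was not among them, its leading P1 transcript of 5888 bases holding 56.7% of the level at P1, 20.5% at P3 and none at E18.5 or P7. With protein-coding transcripts alone, 32 of the 36 genes met the limits, and Bcr, Gatm, Plekha6 and Podn did not.

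ATAC-seq marks open chromatin by the insertion of a transposase, and the deposited peaks were used as called in each library. A promoter region was a stretch of merged peaks, present in at least 2 libraries, with its midpoint within 2.5 kb of a RefSeq start of the gene. The libraries differed in depth of calling, from 13149 peaks in E18.5 replicate 1 to 95257 in P3 replicate 1, and P1 replicate 2 had 19753 peaks. All 36 genes had a RefSeq start, and the comparison set was the 12351 tested genes that had one.

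Counted in single libraries, a promoter peak was found at 16 and 14 of the 36 genes at E18.5 (70.8% and 65.7% of the comparison set), at 21 and 11 at P1 (71.3% and 43.1%), at 33 and 31 at P3 (93.7% and 91.8%) and at 29 and 28 at P7 (90.5% and 89.8%). At E18.5, 11 of the 36 genes (30.6%) had a promoter region with a peak in both libraries, against 59.3% of the comparison set. At P1 it was 11 genes (30.6%) against 41.8%, at P3 31 genes (86.1%) against 91.7%, and at P7 25 genes (69.4%) against 86.7%. With the lists as deposited, the share was thus lower than in the comparison set at each time point, and the gap was widest at E18.5. Among genes with a RefSeq start and a mean P1 level of at least 5 FPKM, the share was 66.2% at E18.5 and 47.4% at P1. It was 96.3% at P3 and 92.5% at P7. The 36 genes were chosen for low transcript levels at E18.5 and P7, and the part of this in their shares was not tested. With the strongest 13149 peaks of every library, to level the depth of calling, it was 27.8% against 56.4% at E18.5, 25.0% against 32.2% at P1, 16.7% against 38.2% at P3 and 19.4% against 46.5% at P7. Genes with a peak in all 8 libraries in the same region were 7 (19.4%) against 36.9%, and were Peg3, Coq8a, Ap1s2, Irx3, D430042O09Rik, Parm1 and Fv1. For Peg3 this was another region (chr7:6727447-6728991), which does not reach the window printed above.

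A region counted as gained at P1 when both P1 libraries and no E18.5 library held a peak there, and such a region was found at 4 genes (Sphkap, Fuca2, Aqp4 and Art3), or 11.1% against 2.16% of the comparison set. The Sphkap region (chr1:83407951-83408447, mm10) lay over the start, with fold enrichments over background of 5.59 and 3.98 (P1), 11.7 and 8.92 (P3), and 5.33 and 5.29 (P7). The Fuca2 region (chr10:13500859-13501742) had its midpoint 272 bases downstream of a start, with fold enrichments of 4.5 and 3.95 (P1), 11 and 7.9 (P3), and 7.07 and 3.59 (P7). The Art3 region (chr5:92369141-92369601) had its midpoint 2311 bases upstream of a start, with fold enrichments of 7.66 and 5.43 (P1), 12 and 8.12 (P3), and 6.2 and 4.43 (P7). All of these regions, and that of Aqp4, which lay 1537 bases upstream with 9.28 and 5.43 at P1, were still called in both P7 libraries, when the transcripts had fallen. No gene of the 36 had a promoter region that was present at P1 and absent at both E18.5 and P7, against 0.462% of the comparison set, and with equal numbers of peaks 1 gene, Aqp4 (2.78% against 0.397%), had one. With the lists as deposited no gene lost at P1 a region of both E18.5 libraries, against 5.48% of the comparison set (3 genes, or 8.33% against 13.8%, with equal numbers of peaks), and none lost at P7 a region of both P1 libraries, against 0.551%, other than Aqp4 with equal numbers of peaks. The 4 genes with a gain became 2 with equal numbers of peaks (Aqp4 and Art3), 2 within 1 kb (Sphkap and Fuca2), and 10 without P1 replicate 2, where the comparison set rose to 10.9%.

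A region gained at P3 against E18.5 was found at 21 genes (58.3%) against 29.5%, and at none with equal numbers of peaks, where it was 2.17% of the comparison set. Kcnab1, Sema3e and Adora1 were among the genes with promoter peaks in the P3 libraries and at P7, and in none of the E18.5 or P1 libraries. Their transcripts were highest at P1. The share of the comparison set with this pattern is not given, and no order of chromatin and transcript is read from it. The Kcnab1 region (chr3:65108903-65109921) had fold enrichments of 5.6 and 5.19 at P3 and 4.8 and 4.33 at P7. Thbs4, Aqp5 and Podn had no promoter region in any library. A peak that was not called at P1 may lie under the limit of calling in those shallow lists.

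**Figure D4:**
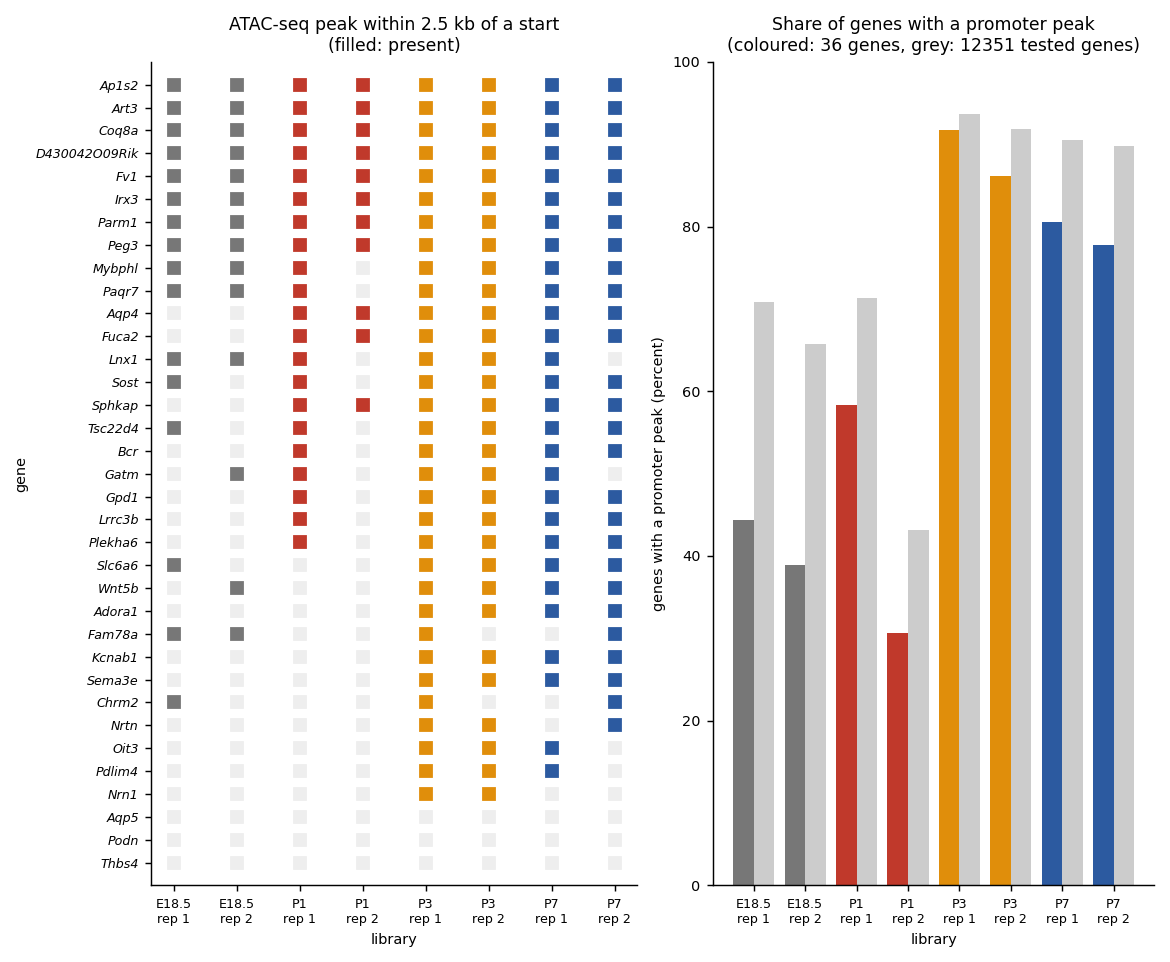
Left, presence (filled) of a promoter peak within 2.5 kb of a start in each of the 8 ATAC-seq libraries (columns) for 35 of the 36 genes (rows). Right, percent of genes with such a peak in each library, for the 36 genes (coloured bars) and the 12351 tested genes with a RefSeq start (grey bars). In P1 replicate 2 the shares are 30.6% and 43.1%, and in P3 replicate 1 they are 91.7% and 93.7%.

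Of the 36 genes, 29 had promoter windows in the RefSeq table, 42 windows in all, out of 32851. Their median GC content was 59.8% against 52.7% over all windows. TGACGTCA was found on either strand in 2 of the 42 windows (4.76%, those of Peg3 and D430042O09Rik) against 1.79% of all windows. The AP1 motif TGANTCA was in 4 windows (9.52%, of Adora1, Coq8a, Lnx1 and Wnt5b) against 7.81%. The heat shock motif GAANNTTC was in 7.14% against 7.86%, TATAAA in 7.14% against 13.6%, the ATF4 motif TGATGNAA in 4.76% against 3.97% and the NRF2 motif TGACNNNGC in 11.9% against 12.4%. No window of the 36 genes held the CArG box or the MEF2 motif, which 1.63% and 3.19% of all windows held. The NRF2 and cyclic AMP motifs both begin with TGAC.

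In the rat cells, 31 of the 36 genes were matched by symbol and 25 passed the filter of 1 FPKM in at least 3 libraries. Replicate 3 stood apart in both groups for several of these genes. Coq8a read 105, 104 and 25.1 FPKM with DMSO and 104, 107 and 34.2 FPKM with TSA, and Art3 read 174, 174 and 65.0 FPKM with DMSO and 136, 130 and 89.6 FPKM with TSA. The results for TSA were therefore also fitted with the replicate number as a block, because the deviations of same-numbered rat libraries correlated in every pair.

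By the same call rule as in mouse, limma called none of the 25 genes with or without the block, against 1.81% of all 13625 tested rat genes called higher and 0.316% called lower. An unadjusted p under 0.05 was found for 5 of the 25 genes, against 19.8% of all tested rat genes, and an adjusted p under 0.05 at any size of difference for 1, Thbs4, against 3.78%. Slc6a6 read 43.3, 44.9 and 27.3 FPKM with DMSO and 22.8, 20.7 and 18.5 FPKM with TSA, a log2 difference of -0.84 ± 0.20 (adjusted p = 0.0727, and 0.0398 with the block). For Slc6a6 each TSA library lay below each DMSO library. Such a separation was not particular to Slc6a6, since for Thbs4, Fv1 and Paqr7 each TSA library lay above each DMSO library. The share of all tested rat genes that separated is not given, so nothing is read from it. Thbs4 was near the limit of detection, with 0.158, 0.124 and 0.428 FPKM with DMSO and 1.4, 1.49 and 1.09 FPKM with TSA, a log2 difference of 0.92 ± 0.18 (adjusted p = 0.0409, and 0.0728 with the block). Sphkap read 32.0, 35.5 and 14.3 FPKM with DMSO and 50.8, 50.7 and 27.3 FPKM with TSA, a log2 difference of 0.68 (SE 0.38 and adjusted p = 0.395 without the block, SE 0.10 and adjusted p = 0.0405 with it). It was higher with TSA within each replicate number, although the groups overlapped. The voom fit on estimated reads called Thbs4, and without DMSO replicate 3 both Thbs4 and Slc6a6 were called.

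**Figure D5:**
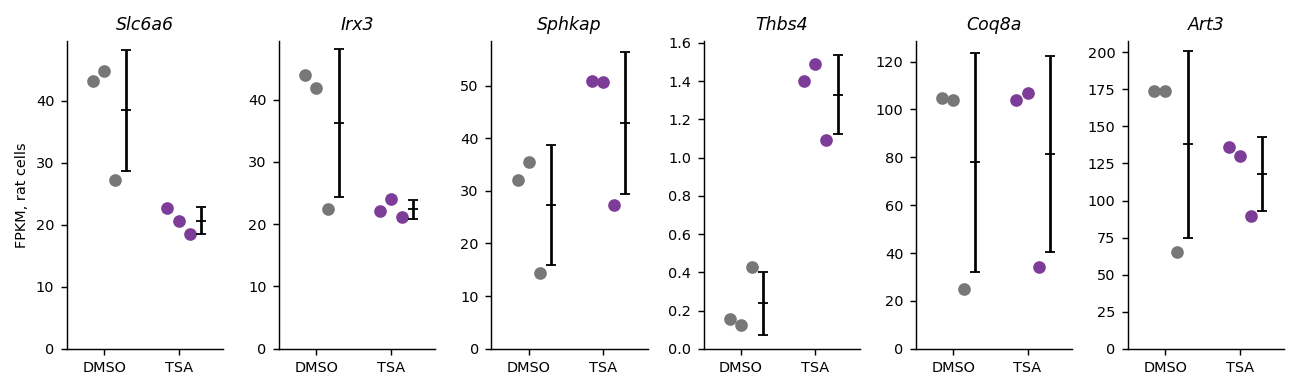
FPKM (vertical axes, from 0) of 6 of the genes in the rat libraries given DMSO or TSA (points, replicates 1 to 3 from left to right) with mean and SD beside them. For Slc6a6 every TSA point lies below every DMSO point, and for Coq8a replicate 3 lies far below the others in both groups, at 25.1 and 34.2 FPKM.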

How the data were processed

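RNA-seq was deposited as transcript tables, 1 per library, in which the authors gave the FPKM, TPM and coverage of each transcript from HISAT2 2.1.0 and StringTie (1.3.5 for mouse on mm10 with GENCODE, 1.3.4d for rat), and FPKM was summed here per gene. For ATAC-seq the authors deposited MACS2 peaks called in each library, with a score, a fold enrichment ratio over local background and −log10 p and q values. The 6 HiChIP libraries were not analysed here.

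The 36 genes, the lists and the roles were chosen with earlier results of these data known, and roles and families were assigned after the genes were known. Genes at 1 FPKM or more in at least 2 mouse or 3 rat libraries were tested with limma 3.58.1 (R 4.3.3, trend, two-sided) on log2(FPKM + 1), all 4 time points in 1 fit, with Benjamini-Hochberg adjustment over all tested genes and a call at adjusted p under 0.05 and a log2 difference over 1. A pseudocount of 1 understates the changes of low genes. The study's own counts were not used here, so the depth is an estimate from coverage. Peaks were merged with bedtools 2.31.1. Nothing in the labels says whether replicates were separate litters, so p-values measure the spread between these samples only. Same-numbered rat libraries deviated together weakly (correlations of 0.22, 0.19 and 0.35), so the replicate number was also fitted as a block there. The labels do not state a pairing, and these correlations do not settle it.

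The genes named were those with the 15 highest P1 levels, the 15 largest ratios, a region gained at P1, a call at P7 against E18.5 or a place next to a limit. Others were named after their values were seen. Some values of 1 of the 36 genes are not reported here; it stays in the counts. Alternatives were other pseudocounts, filters, scalings, a voom fit, a replicate block, other peak rules and each library left out.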

Additional observations from a re-analysis of the deposited data

How the results depend on the processing

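The number of genes with a P1 peak was 36 and became 78 at a ratio of 1.5, 21 at 2 and 7 at 3, 77 on TPM, 23 with size factors and 94 with a mean P1 level of at least 1 FPKM. It ranged from 41 to 143 as each library was left out, which loosens the ratio limits. Of the settings chosen after the data were seen, scaling to the cardiomyocyte markers gave 2, no overlap without a ratio gave 1030, leaving out the erythroid share gave 32 and protein-coding transcripts gave 36. Leaving out a library gave 11 to 19 genes called at P3 against E18.5, 0 to 16 at P7 against P3, 6 to 13 at P7 against E18.5 and 0 to 1 at P3 against P1. Without an expression filter 0 genes were called at P7 against P3. Genes with a promoter region in both P1 libraries ranged from 11 to 21, and those with a region gained at P1 from 4 to 10, with 2 at equal numbers of peaks and 2 within 1 kb. Calls for TSA ranged from 0 to 2 as each rat library was left out, and voom gave 1. No gene named as called changed the sign of its log2 difference under the alternatives to the limma fits, which did not include scaling to the cardiomyocyte markers. On that scale, which raises P7 against P1 in every gene, P7 lay above P1 in 26 genes and below in 5. The shares of all tested genes on it are not given, so nothing particular to the 36 genes is read from these counts. Regions gained at P3 went from 58.3% of the genes against 29.5% of the comparison set to 0.0% against 2.17% with equal numbers of peaks. The cause of these changes was not tested.

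Whether mouse replicate numbers paired libraries is not given by the labels. The deviations of same-numbered mouse libraries correlated at -0.10 to 0.17, which does not settle it. With the replicate number as a block, 17 genes were called at P3 against E18.5, 13 at P7 against P3, 11 at P7 against E18.5 and 0 at P3 against P1. In rat the block left the count at 0. With 2 libraries per time point and FPKM in place of counts, differences of the size of the replicate spread were not detectable.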
